A study of Mus musculus with 4 samples.

Results

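Granulocyte progenitor-like cells were single cells whose transcripts of primary (azurophil) granule proteins were high, while at most 2 of 5 genes for later granule and alarmin proteins were detected at the same cut. A cell was a member when at least 3 of the genes Mpo, Elane, Prtn3 and Ctsg had at least 5 unique molecular identifiers (UMIs, the counted mRNA molecules) each, and when at most 2 of S100a8, S100a9, Ngp, Lcn2 and Camp reached 5 UMIs. Those 2 could stand at any level: single members held up to 1574 S100a8 and 958 S100a9 UMIs in experiment 2. Members were 135 of the 9332 cells kept in experiment 1 and 236 of the 10214 kept in experiment 2, or 371 of 19546 in all. The share was 1.45% in experiment 1 (exact Clopper-Pearson 95% interval 1.21 to 1.71%) and 2.31% in experiment 2 (2.03 to 2.62%). All intervals cover counting error only, because each experiment had 1 mRNA library and no replicate.

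Neutrophil granulocytes are made in the bone marrow from granulocyte-monocyte progenitors. Their granules are filled in order: myeloperoxidase and the serine proteases of primary granules are transcribed first, at the promyelocyte stage, and are switched off before the secondary and tertiary granule proteins (lactoferrin, neutrophilic granule protein, gelatinase) are made. The transcription factors PU.1, C/EBP alpha, C/EBP epsilon and Gfi1 drive this order in the marrow. Notch signalling through Dll1, which stromal OP9-Dll1 cells present, directs progenitors towards the T lineage, while myeloid cells are a side branch in such cultures.

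The cells came from bone-marrow progenitors of mice, grown on OP9-Dll1 stromal cells with IL-7 and Flt3-ligand at 10 ng/ml each, and every culture carried a Bcl2 transgene. For overexpression, cells of B6.Bcl2 transgenic mice aged 8 to 10 weeks received MSCV-Runx1-mCherry or, as control, MSCV-empty-mCherry on day 2 and were sorted on day 4 or 6. For loss of function, cells of B6.Cas9;Bcl2 transgenic mice received E42-gRunx1-hNGFR and E42-gRunx3-mTurquoise, with 3 guide pairs for each gene, or the same vectors with guides against luciferase, and were sorted on day 5 or 8. The labels describe the cultured cells as T progenitors of phase 1 with high cKit. Live CD45-positive cells without Lineage markers and with the vector reporters were sorted, and equal numbers per replicate culture were pooled. Which antibodies made up the Lineage gate is not given in the sources used here. Culture lasted 4 to 5 days in experiment 1 and 4 to 8 days in experiment 2, per the labels. Each experiment held 8 hashtags, antibody-borne barcodes that mark a culture, but the labels tie no hashtag to a vector, guide or day. Hashtags were therefore kept as 8 samples of unknown condition, numbered by their column, and no perturbation was compared with its control.

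Members were deeper than the other cells, with a median of 38917 UMIs against 25105 in experiment 1 and 40916.5 against 26361 in experiment 2. Because the rule counts raw UMIs, depth bears on who is a member: after thinning every cell to 10000 UMIs the share was 0.859% in experiment 1 and 1.24% in experiment 2. Cells that carried more than 1 hashtag (doublets) made up 17.0% of members (interval 11.1 to 24.5%) against 7.30% of other cells (6.77 to 7.85%) in experiment 1, and 25.4% (20.0 to 31.5%) against 20.5% (19.7 to 21.3%) in experiment 2. Doublets of cells with the same hashtag cannot be seen in these counts. The part of doublets in the results was not tested. Values of members with 1 hashtag (112 and 165 cells) are given beside several results. The libraries shared 39 cell barcode sequences, of which 0 were members.

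The 4 genes of the rule and Ms4a3, which marks granulocyte progenitors and took no part in the rule, lie at 4 places in the genome (RefSeq, GRCm38.p6). Prtn3 (chromosome 10, 79879667 to 79883174) and Elane (79886312 to 79888216), which encode proteinase 3 and neutrophil elastase, are next to each other. Ctsg (chromosome 14, 56099885 to 56102574), encoding cathepsin G, lies beside the basophil protease gene Mcpt8 (56082163 to 56085499). Mpo (chromosome 11, 87793784 to 87804412) encodes myeloperoxidase, and Ms4a3 (chromosome 19, 11629499 to 11640851) a membrane protein of the MS4A family. Since the 5 genes are expressed together in the members, the 250 bases upstream of each start are shown from the RefSeq table, with matches to GGAAGT, a core that Ets factors such as PU.1 can bind, in capitals. The windows are chr11:87793534-87793783 (plus strand) for Mpo, chr10:79886062-79886311 (plus strand) for Elane, chr10:79879417-79879666 (plus strand) for Prtn3, chr14:56102575-56102824 (minus strand) for Ctsg and chr19:11640852-11641101 (minus strand) for Ms4a3.
Mpo: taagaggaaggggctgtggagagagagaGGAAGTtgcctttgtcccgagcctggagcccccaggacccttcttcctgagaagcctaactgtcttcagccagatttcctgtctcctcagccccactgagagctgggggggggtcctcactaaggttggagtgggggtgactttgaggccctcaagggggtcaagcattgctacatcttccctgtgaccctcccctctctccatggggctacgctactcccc
Elane: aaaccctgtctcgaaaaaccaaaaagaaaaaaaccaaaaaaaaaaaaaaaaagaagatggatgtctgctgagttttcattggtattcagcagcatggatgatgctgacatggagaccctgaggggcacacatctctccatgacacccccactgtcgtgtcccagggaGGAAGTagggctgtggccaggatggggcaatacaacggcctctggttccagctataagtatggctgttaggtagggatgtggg
Prtn3: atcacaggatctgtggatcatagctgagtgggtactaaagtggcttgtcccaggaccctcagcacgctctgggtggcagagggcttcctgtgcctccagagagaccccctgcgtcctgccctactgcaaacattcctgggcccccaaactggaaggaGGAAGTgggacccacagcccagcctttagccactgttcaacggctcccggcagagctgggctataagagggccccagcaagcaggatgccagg
Ctsg: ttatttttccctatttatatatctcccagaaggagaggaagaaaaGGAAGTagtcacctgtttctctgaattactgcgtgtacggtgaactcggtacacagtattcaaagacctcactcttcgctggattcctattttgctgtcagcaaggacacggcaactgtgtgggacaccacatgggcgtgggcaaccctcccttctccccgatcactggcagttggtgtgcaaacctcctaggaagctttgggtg
Ms4a3: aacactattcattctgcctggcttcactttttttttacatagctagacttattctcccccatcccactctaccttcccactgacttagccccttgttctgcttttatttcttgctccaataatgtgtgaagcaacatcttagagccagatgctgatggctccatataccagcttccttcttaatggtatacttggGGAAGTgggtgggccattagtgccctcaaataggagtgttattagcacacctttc

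GGAAGT was found once in each of the 5 windows, on the plus sense of the gene in all 5, at 222 bases before the start in Mpo, 83 in Elane, 93 in Prtn3, 205 in Ctsg and 55 in Ms4a3. Of 32851 windows of the same length in the table, 19.7% hold this motif on either strand. The longer GAGGAAGT, which contains it, was in the windows of Mpo, Elane and Prtn3 and in 2.44% of all windows. CAACGG, a core of Myb sites, was in Elane and Prtn3 and in 4.05% of all windows, TGTGGT, a core of Runx sites, in Ctsg and in 14.0%, and TTGCNNAA, a core of C/EBP sites, in 0 of the 5 and in 9.56%. These motifs were chosen after the sequences were seen, and a match is a description of letters, not of binding.

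Primary granule transcripts were abundant in the members, which follows from the rule. On the scale of UMIs of a gene per 1000000 UMIs summed over cells (CPM), Prtn3 was at 2783 CPM in members of experiment 1 and 2537 CPM in experiment 2, Ctsg at 1502 and 1144 CPM, Mpo at 1238 and 895 CPM, and Elane at 680 and 599 CPM. CPM are not divided by transcript length, so levels are not ranked between genes. Per cell, the 4 genes summed to a median of 167 UMIs (18 to 1136) in experiment 1 and 159.5 UMIs (20 to 1396) in experiment 2. Prtn3 reached 5 UMIs in 135 of 135 and 235 of 236 members, Ctsg in 133 and 229, Mpo in 118 and 195, and Elane in 90 and 158. Elane was therefore the gene most often missing among members with 3 of the 4 genes (45 of 64 and 78 of 127 such cells). Just outside the rule stood 577 and 668 cells with 2 of the 4 genes, and 20 and 128 cells with 3 or 4 of them and at least 3 of the later genes.

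Within the members the pairs of granule genes did not vary equally together. With members thinned to 5000 UMIs (135 and 232 cells), the Spearman correlation was 0.722 in experiment 1 and 0.581 in experiment 2 for the neighbours Elane and Prtn3, and 0.663 and 0.574 for Mpo and Ctsg, which lie on different chromosomes. It was lowest for Prtn3 and Ctsg at 0.410 in experiment 1, and for Elane with Ctsg at 0.316 and Prtn3 with Ctsg at 0.317 in experiment 2. These values describe cells that share a library and were selected on the same genes. On the same stretch of chromosome 10, the protease gene Prss57 was at 85.4 against 56.5 CPM in other cells of experiment 1 and 73.5 against 56.7 in experiment 2. Plppr3, which flanks Prtn3, was at 58.1 against 15.3 CPM and at 46.1 against 13.6 CPM. On the other side, R3hdm4 was at 63.0 against 71.3 and at 71.7 against 71.8 CPM, and Cfd was listed with at most 0.181 CPM in members.

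Free RNA and doublets can add UMIs to cells that do not make a transcript. The same genes were therefore read in cells that should lack them. In T-committed cells (at least 5 UMIs of 3 or more of Cd3g, Cd3d, Cd3e and Bcl11b), Mpo was at 4.11 CPM in experiment 1 (64 cells, median depth 24243.5 UMIs) and 14.1 CPM in experiment 2 (398 cells, 23094.5 UMIs). In stromal cells (at least 5 UMIs of 3 or more of 9 matrix and stroma genes such as Col1a1) it was at 3.18 CPM (42 cells, 33831.5 UMIs) and 3.69 CPM (559 cells, 37769 UMIs). Elane had 0 UMIs in both classes of experiment 1, and 18.7 and 7.99 CPM in experiment 2. In the T-committed cells of experiment 2 all 215 Elane UMIs were in 3.27% of the cells. Such levels are therefore not a measure of free RNA alone, and the part of doublets in them was not tested. Prtn3 was at 7.63 CPM in T-committed and 48.3 CPM in stromal cells of experiment 1, and at 61.2 and 38.1 CPM in those of experiment 2. Ctsg was at 12.3 and 17.8 CPM, then at 39.1 and 17.6 CPM. At least 1 Mpo UMI was seen in 92.6% and 92.0% of members, against 7.81% and 6.53% of T-committed cells and 11.9% and 10.4% of stromal cells. With every cell thinned to 5000 UMIs, 80.0% and 69.8% of members had a Mpo UMI, against 3.84% and 5.72% of all other cells (213 and 311 other cells and 4 members of experiment 2 were shallower and left out).

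Ms4a3 was high in the members. The rule did not read this gene, but it was measured in the same cells and contrast as the rule, so its values are a description. It stood at 711 CPM in members against 11.8 CPM in other cells of experiment 1, and at 499 against 30.8 CPM in experiment 2. Over the 8 hashtags of experiment 1 its level in members was lowest at 195 CPM in hashtag 7, had a median of 710.9 CPM, and was 1054 CPM in the highest, hashtag 2. Over the 7 hashtags of experiment 2 with at least 5 members it ran from 344 CPM in hashtag 6 through a median of 557.8 CPM to 1073 CPM in hashtag 4. In the other cells of the same hashtags it was between 2.14 and 29.1 CPM in experiment 1 and between 14.45 and 75.3 CPM in experiment 2. These are levels of pooled cells. Single cells did overlap: 88 and 284 other cells had at least 5 Ms4a3 UMIs, and the lowest members had 0. Hashtag 7 of experiment 2, left out with 3 members, was at 64.4 CPM from 8 UMIs. The ratio was 60.3 (57.4 to 63.3) in experiment 1 and 16.2 (15.6 to 16.7) in experiment 2. It changed with the reference: without the 24 and 345 cells that had 3 or more of the later granule genes, it was 111 and 66.5. At least 5 UMIs of Ms4a3 were present in 104 of 135 and 156 of 236 members. After thinning to 5000 UMIs, 72.6% and 61.2% of members had a Ms4a3 UMI, against 1.84% and 4.06% of other cells.

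To describe the rest of the transcriptome, genes with at least 50 CPM in members or other cells were taken as different when they were 2-fold higher or lower in both experiments. Of 2775 genes, 47 were higher (1.69%) and 68 lower (2.45%), the 4 primary granule genes included. Taken singly, experiment 1 had 82 higher (2.6%) and 109 lower (3.46%) of 3149 genes, and experiment 2 had 51 higher (1.77%) and 108 lower (3.74%) of 2889. Over the 2775 genes the median ratio was 1.04 and 1.07, respectively. Since the members were chosen by expression in the same cells, these counts carry no test. Of the 82 genes 2-fold higher in experiment 1, 57.3% were also among those of experiment 2, and of the 51 of experiment 2, 92.2% were among those of experiment 1. Lcn2 and S100a8, both in the rule, had opposite directions: their ratios were 15.8 and 3.76 in experiment 1 and 0.282 and 0.403 in experiment 2. Against other cells without those that had 3 or more later granule genes, both were higher in both experiments (337 and 356, then 17.0 and 24.9). That cut reads Lcn2 and S100a8 themselves, so it raises their ratios by design and does not settle their direction.

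**Figure D1:**
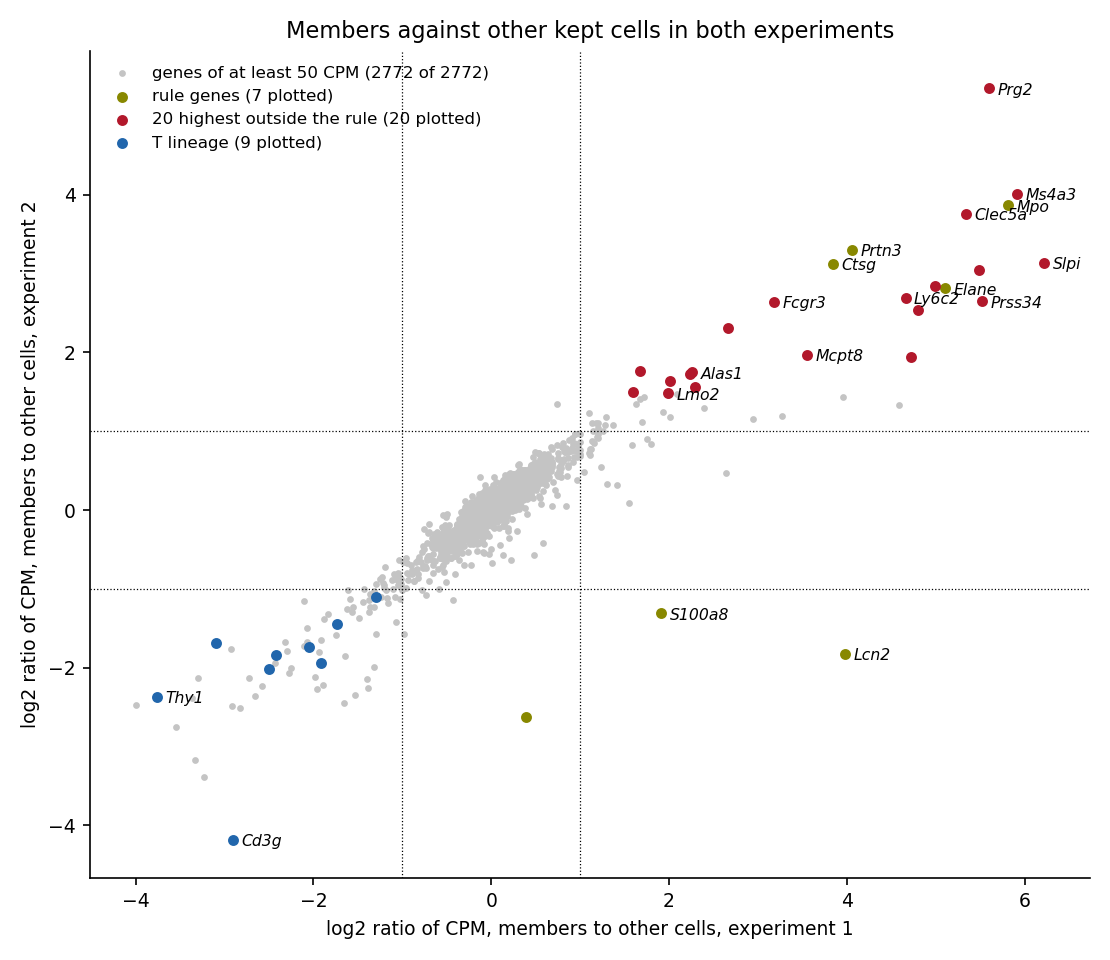
Ratios of CPM in members to other kept cells (log2) in experiment 1 (x axis) and experiment 2 (y axis), 1 point per gene of at least 50 CPM, with dotted lines at 2-fold. Most genes lie near 0, Ms4a3 (60.3 and 16.2) sits at the upper right beside Mpo, the 9 T-lineage genes sit at the lower left, and Lcn2 and S100a8 lie at the lower right, above other cells in experiment 1 and below them in experiment 2.

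Genes for granule assembly and storage formed a mixed group. Of 13 listed genes 12 were measured at 50 CPM, and 4 were higher in both experiments: Ctsc, Mgst1, Hp and Lyz2. Ctsc, the dipeptidyl peptidase that activates the granule serine proteases, was at 173 against 54.4 CPM in experiment 1 and 202 against 59.6 CPM in experiment 2, higher in 8 of 8 and 7 of 7 hashtags. Hp (haptoglobin) was at 167 against 6.32 and 166 against 43.3 CPM, and Mgst1, a microsomal glutathione transferase, at 96.4 against 4.00 and 64.7 against 25.7 CPM. Among cells with 1 hashtag of experiment 2 Hp was at 199 against 32.5 CPM. Lyz2 (lysozyme) was at 191 against 19.8 and 499 against 219 CPM. Without the other cells that had 3 or more later granule genes, the ratio in experiment 2 was 7.55 rather than 2.28 for Lyz2 and 4.15 rather than 2.52 for Mgst1. Srgn, the proteoglycan core on which granule proteins are packed, was at 989 against 700 and 768 against 643 CPM, less than 2-fold apart. Calr, the endoplasmic reticulum chaperone that binds newly made myeloperoxidase, was at 2007 against 1006 and 1355 against 802 CPM. Its correlation with the sum of the 4 primary granule genes across members was 0.498 and 0.388. Cst7 (1.09 and 0.928 times other cells) and Nkg7 (0.524 and 0.542 times) were not higher.

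Among the genes of haem synthesis and of the oxidase that supplies hydrogen peroxide to myeloperoxidase, 1 of 7 measured was 2-fold higher in both experiments. This was Alas1, the first enzyme of haem synthesis outside erythroid cells, at 76.4 against 15.9 CPM and 54.8 against 16.3 CPM, higher in 8 of 8 and 7 of 7 hashtags. The oxidase subunit genes Ncf1 and Ncf4 were 1.66 to 2.29 times other cells. Of 13 listed late granule and maturation genes 3 were measured, and Cybb, the membrane subunit of the same oxidase, and Lyz2 were higher in both experiments. Cybb was at 99.7 against 6.44 and 69.2 against 25.6 CPM (ratio 2.70 in experiment 2, and 4.92 without the other cells that had 3 or more later granule genes). The listed genes of this group that were not measured at 50 CPM are not counted.

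Among 18 listed regulators 7 were measured at 50 CPM, and Cebpb, Spi1 and Irf8 were higher in both experiments. Spi1, which encodes PU.1, was at 360 against 156 CPM in experiment 1 and 406 against 197 CPM in experiment 2. Cebpb was at 236 against 73.7 and 172 against 64.6 CPM. Irf8, which favours monocytes over neutrophils in the marrow, was at 149 against 39.1 and 199 against 83.9 CPM. It was also high next to the class. Among cells with 1 hashtag, those just outside the rule (2 primary genes) had Irf8 at 115 and 156.5 CPM. Members with 3 primary genes and 1 hashtag had it at 143 and 202 CPM. Factors of granulocyte development passed 50 CPM in 1 experiment or none. Cebpa was at 60.8 against 4.47 and 40.0 against 7.32 CPM, and Cebpd at 46.5 against 4.54 and 50.8 against 16.6 CPM. Cebpe was at 54.6 against 1.59 and 32.9 against 11.5 CPM, ratios of 34.5 and 2.87 that were 71.1 and 62.3 without the other cells that had 3 or more later granule genes. Gfi1, the repressor needed for granulocyte maturation, was at 18.5 against 13.8 CPM in experiment 1, and in experiment 2 at 11.3 CPM, within counting error of other cells (ratio 1.02, interval 0.846 to 1.23). Myb was lower than in other cells, at 0.612 and 0.670 times.

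The targets of the study were read in members and other cells without regard to condition. Runx1 was at 72.7 against 96.7 CPM in experiment 1 (0.752 times, 0.680 to 0.830) and at 52.8 against 72.4 CPM in experiment 2 (0.729 times, 0.670 to 0.793). Runx3 was at 85.2 against 150.4 CPM and 67.9 against 120 CPM, ratios of 0.567 (0.516 to 0.621) and 0.568 (0.527 to 0.611). Runx3 was lower in members in 8 of 8 hashtags of experiment 1 and in 6 of 7 of experiment 2. Runx1 was lower in 7 of 8 and 6 of 7. Per hashtag the Runx1 level of members was highest in hashtags 8 (147 CPM) and 7 (125 CPM) of experiment 1, which also had the highest levels in other cells (211 and 241 CPM). The counts do not tell endogenous from vector-borne Runx1, and a guide need not lower a transcript.

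Of 16 listed receptor genes, 5 were measured at 50 CPM and 2 were higher in both experiments: Csf2rb, the shared beta chain of the GM-CSF, IL-3 and IL-5 receptors (90.1 against 17.2 and 54.7 against 22.4 CPM), and Fcgr3, a receptor for IgG (63.5 against 7.00 and 62.0 against 9.95 CPM). Csf3r, the G-CSF receptor, was low but above other cells, at 20.1 against 1.44 and 11.2 against 3.07 CPM. Without the other cells that had 3 or more later granule genes, the ratios in experiment 2 were 5.72 rather than 3.64 for Csf3r and 9.77 rather than 6.23 for Fcgr3. The progenitor gene Cd34 was near the level of other cells (126 against 145 and 114 against 124 CPM). Among cells with 1 hashtag it was at 113 and 114 CPM in members. Those just outside the rule (2 primary genes) had it at 226 and 204 CPM. Kit, by whose product the labels describe these cultures, was at 39.3 against 69.2 and 23.2 against 34.9 CPM. Il7r was at 1.45 against 16.3 and 2.25 against 19.1 CPM, the latter 0.295 CPM in members with 1 hashtag.

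Among the 20 genes with the highest ratios outside the rule were Clec5a, a myeloid lectin receptor (89.6 against 2.21 and 64.3 against 4.76 CPM), and Slpi, an inhibitor of elastase and cathepsin G (88.1 against 1.18 and 68.1 against 7.73 CPM). They also held Igsf6 (130.5 against 2.91 and 108 against 13.1 CPM), Trem3 (73.5 against 2.31 and 54.6 against 7.58 CPM) and Anxa3 (116 against 4.18 and 103 against 17.6 CPM). Each of these 5 was higher in every hashtag with at least 5 members, and their 5 highest cells held no more than 40.3% of the UMIs in either experiment. Without the other cells that had 3 or more later granule genes, their ratios in experiment 2 were 28.8 for Clec5a, 15.8 for Slpi, 18.9 for Igsf6, 25.8 for Trem3 and 8.88 for Anxa3, against 13.5, 8.81, 8.28, 7.20 and 5.83 with them. Igsf6 was 69.7 against 44.9 in experiment 1. The other genes of the 20, apart from Ms4a3 and those named elsewhere, were Rassf4, Ap3s1, Msrb1, Mapkapk3 and Lmo2.

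Markers of other cell types were read over whole lists. Of the monocyte list 4 of 9 genes were measured, and Ms4a6c and Ly6c2 were higher in both experiments. Ly6c2 was at 104 against 4.12 and 112 against 17.3 CPM, ratios of 25.3 and 6.49 that were 73.2 and 35.5 without the other cells that had 3 or more later granule genes. The list summed to 697 against 201 CPM in experiment 1 and 805 against 285 CPM in experiment 2. Csf1r was at 42.2 and 50.2 CPM and F13a1 at 42.3 and 48.9 CPM in members. Both were also higher than in other cells. Among cells with 1 hashtag Csf1r was at 44.7 against 11.85 and 57.6 against 20.4 CPM. F13a1 was there at 42.1 against 1.75 and 62.5 against 3.06 CPM. All 4 measured dendritic genes (H2-Aa, H2-Ab1, H2-Eb1 and Cd74, which present antigen) were lower in both experiments, and Xcr1 and Clec9a had 0 UMIs in members. The B-lineage list summed to 26.4 against 34.2 and 64.0 against 138 CPM with none of 8 genes measured at 50 CPM. The stromal list summed to 2.17 against 70.8 and 57.7 against 796 CPM. The 1 measured gene of 9 innate lymphoid genes, Gzmb (31.3 against 119.7 and 38.2 against 134 CPM, or 20.97 CPM in members of experiment 2 with 1 hashtag), and of 8 erythroid genes, Hbb-bt (548 against 1680.0 and 619.8 against 1247 CPM), were lower. Whether cells of other types contributed to these levels was not tested.

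T-lineage genes were low against all other kept cells, though Tcf7 and Il2ra were also low in the cells next to the class. All 9 of the 17 listed genes that were measured at 50 CPM were lower in both experiments (median ratios 0.186 and 0.279, against 1.04 and 1.07 over all genes). Tcf7, the Notch-induced factor that opens the T programme, was at 31.1 against 167 CPM in experiment 1 and 28.8 against 103 CPM in experiment 2, lower in 8 of 8 and 7 of 7 hashtags. Il2ra, the surface marker of the next T stage, was at 34.4 against 294 and 46.3 against 150 CPM. Thy1 was at 6.15 against 83.4 and 16.5 against 85.3 CPM. Bcl11b, required for T commitment, was at 0.362 and 3.47 CPM in members, and Cd3e at 0 UMIs and 1.22 CPM. Hes1, a direct Notch target, was 0.300 and 0.368 times other cells. The 10 genes with the lowest ratios were Pgam2, Ly6d, Cd3g, Arpp21, Khdc1a, S100a6, Tcrg-C2, Tcrg-C1, Thy1 and Tmem121. Of these Tcrg-C1, a constant segment of the T-cell receptor gamma chain, was at 21.2 against 219 and 34.6 against 180.1 CPM. Beyond the list, Gzma was at 128 against 1258 and 255 against 1118 CPM. In members with 1 hashtag Il2ra was at 16.6 and 20.5 CPM, Gzma at 38.3 and 117 CPM, Thy1 at 3.78 and 9.89 CPM, and Tcrg-C1 at 15.5 CPM in experiment 2. Tcf7 was then at 12.3 CPM and Hes1 at 15.4 CPM in experiment 2, Cd3g was at 0.473 and 0.886 CPM, and Bcl11b was at 0.591 CPM in experiment 2. Cells with 1 hashtag just outside the rule (2 primary genes) had Tcf7 at 39.2 and 28.5 CPM and Il2ra at 37.0 and 30.6 CPM. Those with 3 or 4 primary and at least 3 later genes had Tcf7 at 9.03 and 1.56 CPM and Il2ra at 4.515 and 3.51 CPM.

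Genes of the cell cycle did not set the members apart. None of 15 S-phase genes and none of 15 genes of G2 and mitosis was 2-fold different in both experiments. Their median ratios were 0.953 and 1.03 for S phase and 1.06 and 1.07 for G2 and mitosis, beside 1.04 and 1.07 for all genes. The summed S-phase level was 2522 CPM in members against 2639 CPM in other cells of experiment 1, and 2238 against 2143 CPM in experiment 2.

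The members were placed in 4 steps by the granule genes they held. In the first step, 64 and 127 cells had 3 primary genes, whatever their later genes. The next steps had all 4 primary genes: 36 and 57 cells with none of the later genes, 20 and 23 with 1, and 15 and 29 with 2. Over all members 22 and 28 had 1 later gene, and 16 and 34 had 2. These steps were set by the rule genes, so what follows is a description of other genes along them. Ms4a3 was at 262, 795, 1172 and 1681 CPM over these 4 steps in experiment 1 and at 217.5, 770.4, 824 and 1073 CPM in experiment 2. It was at 44.8 and 39.4 CPM in the cells just below the rule, and 1772 and 1244 CPM in cells with at least 3 later genes and at least 3 primary genes. Cebpe, the factor of secondary granules, was at 18.2, 41.3, 114.9 and 150.9 CPM over the steps in experiment 1 and at 9.81, 48.2, 57.4 and 100.4 CPM in experiment 2. In cells with 1 hashtag the first step of Cebpe in experiment 2 was at 1.77 CPM, from 6 UMIs in 84 cells, and the others at 55.6, 69.4 and 98.2 CPM. Outside the class it was at 236 and 312 CPM in the cells with more later genes. Alas1 was at 36.3, 65.2, 139.6 and 178 CPM, then at 27.4, 58.9, 107 and 146 CPM. Gfi1 was at 9.86, 12.6, 31.7 and 48.7 CPM, then at 7.27, 12.2, 12.04 and 30.9 CPM, with overlapping intervals between the first 3 steps of experiment 2.

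Other genes had the opposite order. Cd34 was at 167, 127, 56.3 and 56.6 CPM over the 4 steps in experiment 1 and at 142, 104, 55.6 and 40.5 CPM in experiment 2. Tcf7 was at 58.8, 13.3, 3.52 and 0 CPM in experiment 1, and in cells with 1 hashtag at 53.5, 2.64, 1.39 and 0 CPM. In experiment 2 it was at 37.9, 15.6 and 5.56 CPM but 34.7 CPM in the last step, where 27.6% of the cells were hashtag doublets. In cells with 1 hashtag of experiment 2 Tcf7 was at 18.3, 7.20, 2.48 and 7.92 CPM over these steps, the last from 5 UMIs in 17 cells. Irf8 had no such order within the class (134.5, 142, 211 and 141 CPM, then 194, 212, 219.5 and 174 CPM) and was at 67.4 and 71.1 CPM in cells with at least 3 later genes. Ms4a6c was also low past the same step. It was at 271 and 392 CPM in members with all 4 primary genes and 1 later gene. With all 4 and 2 later genes it was at 95.9 and 186 CPM, and outside the class at 54.7 and 102 CPM. Chil3 and Ltf, genes of later neutrophil stages, were at most 143 and 1.85 CPM in members of any step, against 1048 and 3009 CPM for Chil3 in cells with more later genes and primary genes, and 4325 and 4456 CPM for Ltf in cells that kept fewer than 3 primary genes.

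**Figure D2:**
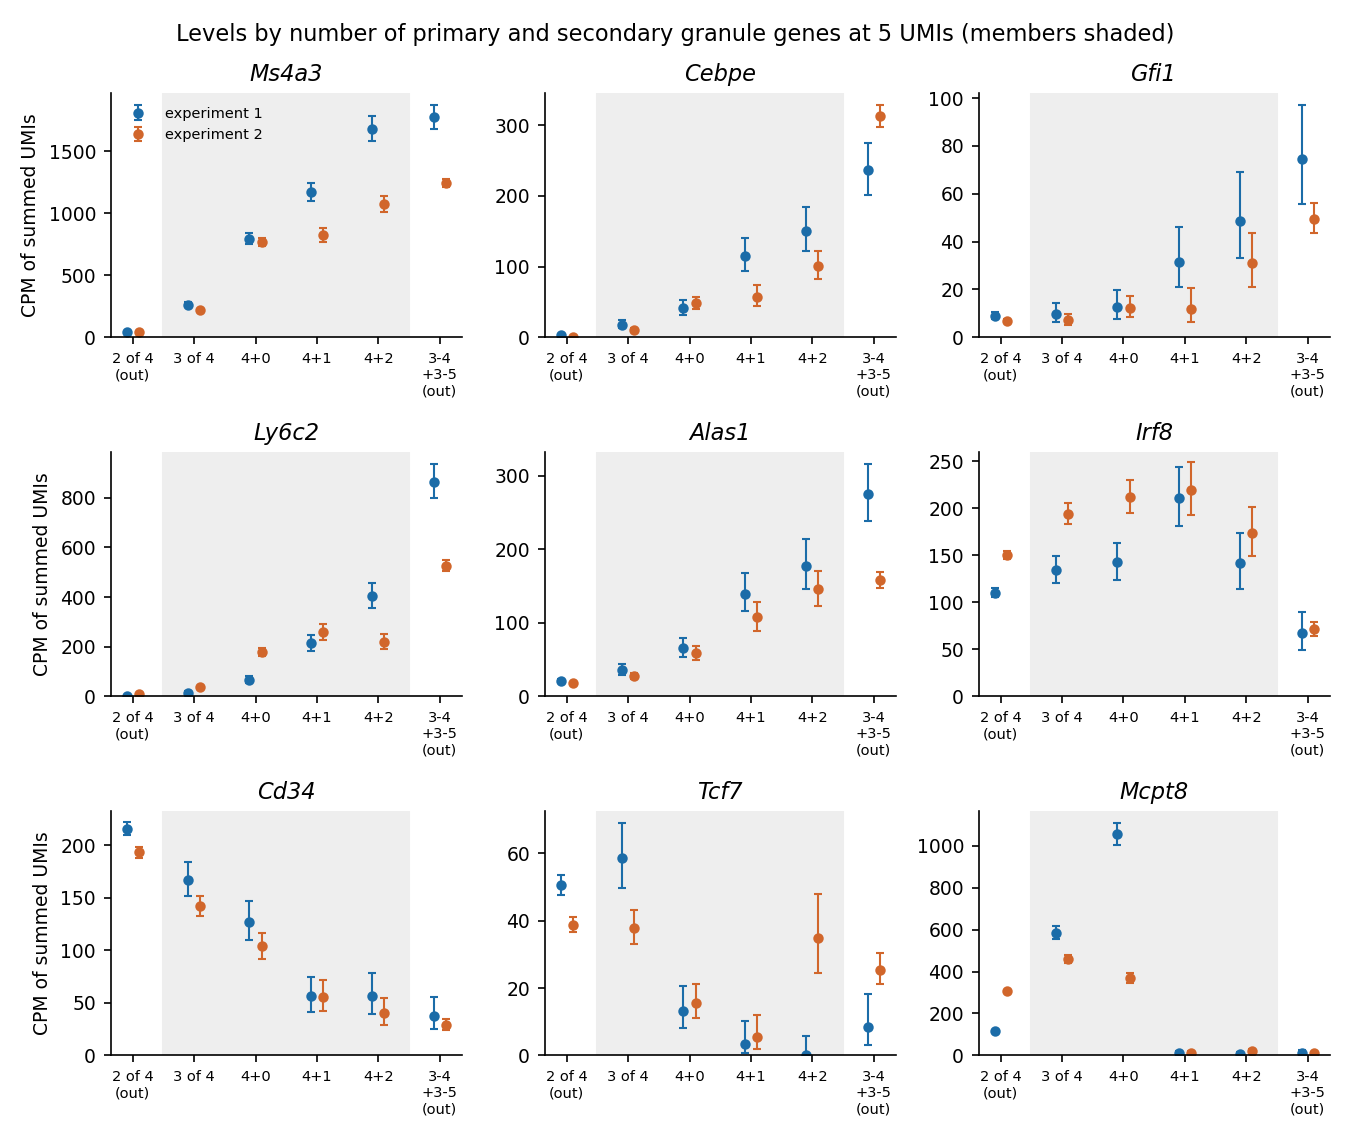
CPM of 9 genes (y axes, each from 0) in cells grouped by the number of primary plus secondary granule genes with at least 5 UMIs (x axis; members shaded, neighbouring cells outside the class marked out); bars are exact 95% Poisson intervals for counting error. Ms4a3, Cebpe, Ly6c2 and Alas1 are higher and Cd34 lower towards the right, while Mcpt8 is low wherever all 4 primary genes come with a secondary gene (7.86 to 19.3 CPM) and high in members before that step. In the first step its level was 585 CPM in experiment 1 and 459 CPM in experiment 2, and 129 and 699 CPM in cells with 1 hashtag. Cells with 1 hashtag and 2 primary genes, outside the class, had Mcpt8 at 118 and 385 CPM.

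Of 8 listed mast cell and basophil genes 3 were measured at 50 CPM, and Mcpt8 and Prss34 were higher in both experiments. A few members carried transcripts of basophil and eosinophil granules, and these set several of the highest ratios. At least 5 UMIs of Mcpt8, a basophil protease, were found in 17 of 135 members in experiment 1 (12.6%, 7.51 to 19.4%) and in 26 of 236 in experiment 2 (11.02%, 7.32 to 15.7%), a split chosen after its values were seen. The cut was reached by 3.44% and 2.80% of other cells, and by 1.56% and 1.51% of T-committed cells. Cells next to the class also held Mcpt8. Among cells with 1 hashtag, those just outside the rule (2 primary genes) had it at 118 and 385 CPM. Members with 3 primary genes and 1 hashtag had it at 129 and 699 CPM. Of the members at the cut, 11 and 17 had 3 primary genes. All 4 came with no later gene in 6 and 7, and with a later gene in 0 and 2. The cell with 719 Mcpt8 UMIs in experiment 2, with 3 primary genes, also had 1 later gene. Mcpt8, which set the split, was at 3939 CPM in members at the cut against 16.2 CPM in the remaining members in experiment 1. In experiment 2 it was at 3035 against 12.3 CPM. Prss34, another basophil protease, was at 1963 CPM against 0 UMIs, and at 2999 against 21.9 CPM. Gata2, a factor of mast cells and basophils, was at 135 against 6.09 and 66.5 against 3.59 CPM, and Cpa3, a mast cell carboxypeptidase, at 498 against 19.1 and 363 against 32.2 CPM. Ms4a2, the beta chain of the IgE receptor, was at 263 against 2.73 and 131 against 0.317 CPM.

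Prg2, the major basic protein of eosinophil granules, had the highest ratio of any gene of at least 50 CPM outside the rule when the lower of the experiments is taken (48.7 and 40.8), and it came from very few cells. It was higher in members in 3 of 8 and 0 of 7 hashtags. At least 5 UMIs of Prg2 were present in 3 members of experiment 1 and in 1 member of experiment 2, and this last cell, which carried more than 1 hashtag, held 1695 of the 1696 UMIs. All 4 also had at least 5 Mcpt8 UMIs. The 5 highest cells held 79.7% and 73.8% of the members' Mcpt8 UMIs and 87.7% and 65.9% of those of Prss34. In experiment 1, 59.0% of Mcpt8 and 77.3% of Prss34 UMIs were in members that carried more than 1 hashtag. In members with 1 hashtag Mcpt8 was at 299 CPM and Prss34 at 80.4 CPM, against 558 and 271 CPM over all members of that experiment. Without the members with 5 Mcpt8 UMIs, the ratio of Mcpt8 to other cells turned from 11.8 to 0.341 in experiment 1. In experiment 2 it turned from 3.91 to 0.137. This cut reads Mcpt8 in members alone, so it lowers the Mcpt8 ratio by design. For Prg2 the ratio was then 0.0415 and 0.0271. Without these members the ratio of Ms4a3 was 64.2 and 15.9.

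The members with Mcpt8 differed from the rest in the granule genes too. In experiment 1 they had less Prtn3 (623 against 3129 CPM) and Elane (126 against 768 CPM) and more Ctsg (2090 against 1408 CPM). In experiment 2 Prtn3 was at 1470 against 2670 CPM and Ctsg at 2067 against 1028 CPM, while Elane did not differ beyond counting error (593 against 600 CPM, ratio 0.988, 0.912 to 1.07). Most of this Elane was in a few cells near the cut. Single cells with 5, 8 and 12 Mcpt8 UMIs held 188, 296 and 97 Elane UMIs, and the cell with 728 Mcpt8 UMIs held 1. The part of such cells in the levels of Elane and Mpo was not tested. Mpo had opposite directions, at 948 against 1284 CPM in experiment 1 and 1513 against 817 CPM in experiment 2. Irf8 was at 15.7 against 171 and 93.5 against 212 CPM, Hp at 9.17 against 192 and 60.6 against 179 CPM, and Lyz2 at 13.1 against 219.6 and 222 against 534 CPM. Cebpe was higher in them, at 90.4 against 48.9 and 104 against 24.1 CPM. Along chromosome 14 the neighbours of Mcpt8 and Ctsg were not expressed: Mcpt1, Mcpt2, Mcpt4 and Mcpt9 were at most 0.938 CPM in the members.

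**Figure D3:**
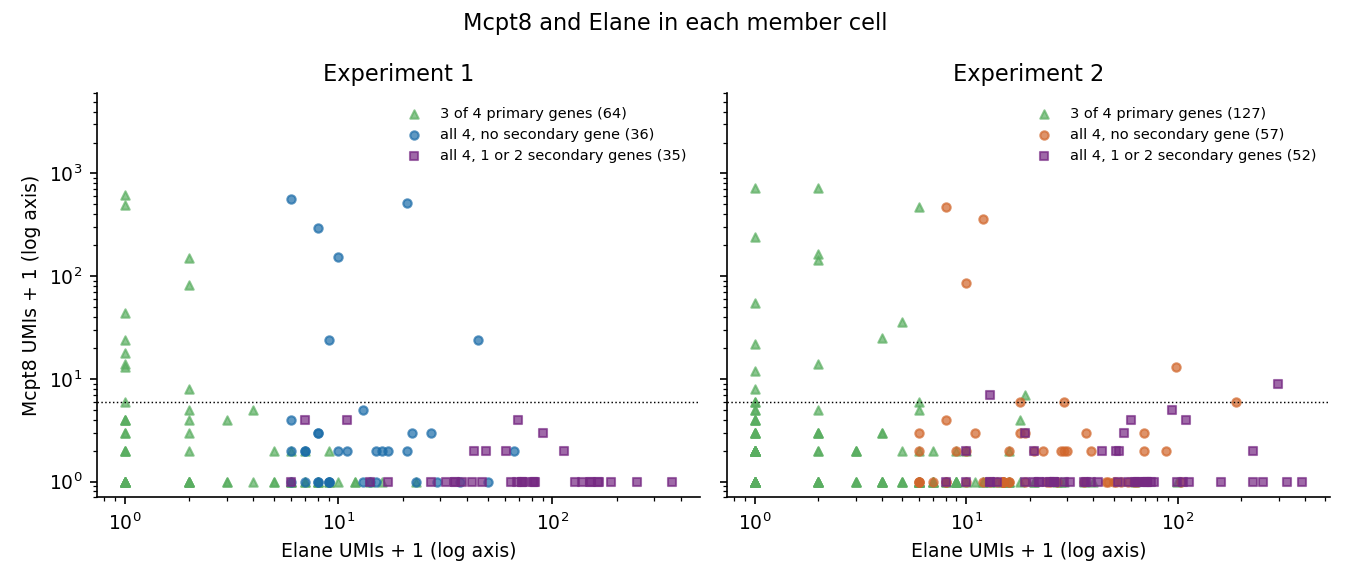
UMIs of Elane (x axis) and Mcpt8 (y axis) in each member, both plus 1 on log axes, with the line at 5 Mcpt8 UMIs; symbols give the step of the cell. On or above the line lie 17 and 26 cells, 11 and 17 of them with 3 of the 4 primary genes. All 4 with a secondary gene were held by 2 cells, both in experiment 2. The cell with 719 Mcpt8 UMIs in experiment 2, with 3 primary genes, also had 1 secondary gene.

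Members were found under every hashtag, at unequal shares. In experiment 1 hashtags 1 and 2 held 2.14% (27 of 1263 cells, interval 1.41 to 3.10%) and 3.09% (36 of 1164, 2.18 to 4.26%), and the other 6 hashtags held 0.516 to 1.16% (6 to 11 members each). In experiment 2 hashtag 1 was highest at 5.62% (49 of 872, 4.19 to 7.36%). Hashtags 5, 6, 2, 8, 3 and 4 followed at 2.74, 2.56, 1.90, 1.74, 1.60 and 0.989%, with overlapping intervals between neighbours. Hashtag 7 was lowest at 0.295% (3 of 1016, 0.0609 to 0.861%). Depth did not order these shares throughout, but the hashtags with the highest shares were deep: the median cell of hashtag 1 had 31760 UMIs, the highest of experiment 2, and those of hashtags 1 and 2 in experiment 1 had 29210 and 29510, the highest there. Hashtag 3 of experiment 2 was also deep (29520) at a share of 1.60%. Hashtags 7 and 8 of experiment 1 were the shallowest there (17970 and 20850), with higher shares (0.761 and 1.16%) than hashtags 4 and 6 (0.516 and 0.622%; 24490 and 24690 UMIs). With cells thinned to 10000 UMIs the share was 1.41% and 2.50% in hashtags 1 and 2 of experiment 1, against 0.181 to 0.803% in the others. In experiment 2 it was then 2.49% in hashtag 1 and 2.45% in hashtag 6, so hashtag 1 no longer stood apart, and 0 of 918 cells in hashtag 7 (upper limit 0.401%).

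**Figure D4:**
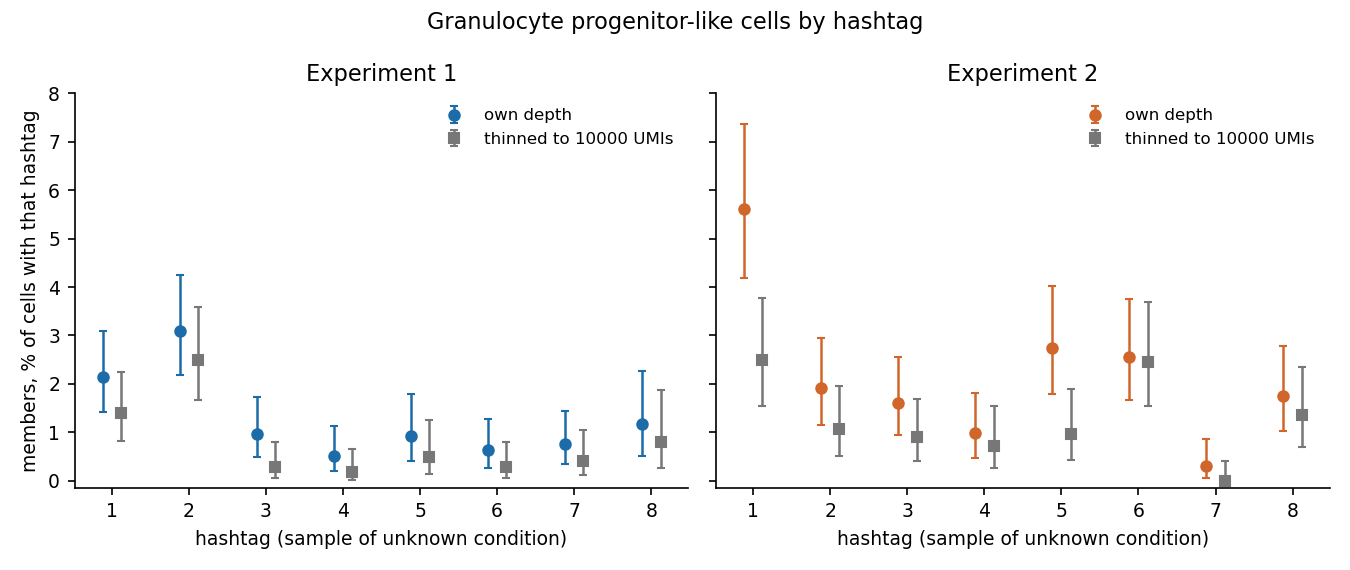
Members as a percentage of the cells with each hashtag (x axis), at the cells' own depth (coloured) and after thinning to 10000 UMIs (grey), with exact 95% Clopper-Pearson intervals for counting error. Hashtag 2 is highest in experiment 1 either way (3.09% and 2.50%), while in experiment 2 hashtag 1 is at 5.62% at its own depth and 2.49% after thinning.

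The cells with later granule genes did not follow the same order of hashtags. In experiment 2 they were most frequent in hashtags 6 (6.87% of cells) and 2 (5.41%), against 2.41% in hashtag 1, and 0 of 1016 in hashtag 7. In experiment 1 they were 0.859% of hashtag 2 and at most 0.290% elsewhere. Mcpt8 in members was also uneven: it was at 2311 CPM in hashtag 4 (10 members) and 1451 CPM in hashtag 5 (25 members) of experiment 2, and at 7.403 CPM in hashtag 6 (25 members). Cebpe in members ran from 0 UMIs in hashtag 4 (6 members) to 164 CPM in hashtag 7 (9 members) of experiment 1, and from 1.95 CPM in hashtag 5 to 101 CPM in hashtag 8 of experiment 2. The conditions behind these hashtags are not known.

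Members of the experiments were alike in most genes. A 2-fold difference was seen in few of 2967 genes: 9 were higher in the later experiment (0.303%) and 8 were lower (0.27%), beside a median ratio of 0.956. Culture time, the mix of conditions and the library differ between the experiments and cannot be told apart. S100a8 (705 against 245 CPM) and S100a9 (290 against 92.1 CPM), both in the rule, were higher in experiment 2. They were also higher in other cells, among which the rule places cells with 3 or more later genes. There S100a8 was at 1748 against 65.2 CPM. S100a9 was at 1678 against 71.2 CPM in other cells with 1 hashtag. Also higher in members of experiment 2 were Lyz2 (499 against 191 CPM), S100a6 (70.7 against 19.5 CPM) and Cd74 (134 against 66.0 CPM). The T-cell receptor gene Trbc1 was higher too (119 against 48.5 CPM). Other cells moved the same way in Lyz2 (11.1 times), S100a6 (2.69 times), Cd74 (3.72 times), Gm10076 (2.65 times), Hist1h2ap (2.85 times) and Prdx4 (1.95 times), and the ratio of Trbc1 there was 1.09. Lower were Myc, a growth regulator (33.8 against 84.5 CPM; 0.530 times in other cells), Rpa3, Nomo1, F630028O10Rik, Thbs1, Hdc, Gda and Prg3. Of these, Thbs1 (35.8 against 108 CPM), Hdc, the histamine-forming enzyme (32.3 against 67.7 CPM), and Gda (30.6 against 62.2 CPM) were higher in the other cells of experiment 2 (1.88, 1.57 and 4.70 times). In members with 1 hashtag the ratio was under 2-fold for S100a8 (1.79), S100a9 (1.53), Trbc1 (1.56), Hdc (0.590) and Gda (0.567). Without the members with 5 Mcpt8 UMIs it was 0.881 for Hdc, at 25.3 against 28.8 CPM, and 0.754 for Prg3, from 2 UMIs in experiment 1 and 3 in experiment 2. With TMM or DESeq2 scaling all ratios shift by 0.20 on the log2 scale, and with either scaling 13 genes are higher and 4 lower.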

How the data were processed

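Single-cell mRNA counts and hashtag counts of 2 experiments were used, 4 deposited samples in all. The deposited values are whole-number UMI counts per gene (31053 genes) or per hashtag and cell barcode, made by the authors with Cell Ranger 3.0.0 on mm10, per the submitters' processing notes. Libraries are 3' mRNA with 10x Chromium v3, per the labels. Experiment 1 held 9967 barcodes with 246706921 UMIs and experiment 2 held 10556 with 296727412.

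Barcodes were dropped when they had fewer than 500 genes or 10% or more mitochondrial UMIs (635 and 342 barcodes). Members were chosen by the rule given above. Seurat 5.3.0 (HTODemux, quantile 0.99) assigned cells to hashtags, and doublets were kept. Counts were summed over cells and divided by total UMIs. Ratios of sums have exact conditional 95% intervals, and levels exact Poisson intervals, which cover counting error only. With 1 mRNA library per experiment and hashtags tied to no condition, no test between groups was made. Genes were compared where the higher pool had at least 50 CPM. Hashtag levels are summarised over hashtags with at least 5 members. The ratio script was tested on simulated data.

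The members and gene lists were chosen with earlier results of these data known. The rule for named genes takes the 190 genes of 18 lists, the 20 genes outside the rule with the highest and the 10 with the lowest ratio by the weaker experiment, and the 8 highest and 8 lowest between experiments. Others, such as the chromosomal neighbours, were chosen after their values were seen. Alternatives covered the cell filter, the UMI cut and gene numbers of the rule, depth thinning, doublets, hashtag calls, the CPM minimum, and scaling by edgeR 4.0.16 (TMM) and DESeq2 1.42.0 (size factors). Python 3.11.15, numpy 2.4.6, scipy 1.17.1, pandas 2.3.3, matplotlib 3.10.9 and R 4.3.3 were used. Promoters and positions are from RefSeq tables of GRCm38.p6, matched by symbol. Some listed genes are not reported here.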

Additional observations from a re-analysis of the deposited data

Results flagged for a closer look

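Over 42 comparisons of 8 or 7 hashtags, some had 1 hashtag far from the others. For normally distributed values chance gives such a flag in about 1 of 20 groups. Pooled levels of few cells need not keep that rate, so the flags carry no test against chance. The share of members in experiment 2 was 5.62% in hashtag 1, against 2.74% in the next. Gfi1 in members of experiment 1 was at 63.7 CPM in hashtag 6, from 16 UMIs in 7 members. S100a8, a gene of the rule, was at 1349 CPM in hashtag 6 of experiment 1 (339 UMIs in 7 members) and at 2173 CPM in hashtag 6 of experiment 2 (2055 UMIs in 25 members). Over all members, single cells held up to 341 and 1574 S100a8 UMIs, so few cells can set such levels. The labels do not say that the same hashtag marks the same condition in both experiments. Ctsg, also in the rule, was at 3063 CPM in hashtag 8 of experiment 2 (17 members), and Tcf7 at 52.39 CPM in hashtag 4 (10 members).

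Outside the cells compared, 4 barcodes of experiment 1 that the cell filter dropped met the rule. In experiment 2, 11 of 291 cells without a hashtag were members, or 3.78% (interval 1.90 to 6.66%).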

How the results depend on the processing

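Of 136 recomputed shares and gene counts 96 were close to the reported value and 40 moved. Of 4780 recomputed ratios 2989 were close, 1762 moved and 29 changed direction; the causes were not tested. The share of members was 1.922% in experiment 1 with a filter of 1000 genes and 5% mitochondrial UMIs. In experiments 1 and 2 it was 2.047% and 3.064% at 3 UMIs per rule gene, 1.061% and 1.508% at 10 UMIs, 0.7608% and 1.067% with all 4 primary genes, 1.039% and 1.704% with no secondary gene, and 0.8589% and 1.237% after thinning to 10000 UMIs. The highest hashtag share in experiment 2 was 3.44%, 2.638%, 4.014% and 2.485% at 10 UMIs, with all 4 genes, with no secondary gene and after thinning, and 1.804% in experiment 1 with no secondary gene. Leaving out each hashtag in turn, over cells with 1 hashtag, gave shares of 1.022 to 1.425% and 1.669 to 2.38%, and 7 to 13 genes higher and 8 to 15 lower in experiment 2 than in experiment 1.

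Genes higher in members in both experiments numbered 83 with all 4 primary genes and 30 with no secondary gene. A minimum of 20 CPM gave 92 higher and 131 lower, and none gave 346 and 2438. Between experiments, genes lower numbered 15 at 10 UMIs, 20 with all 4 genes, and 4 with TMM and 4 with DESeq2 scaling (13 higher with either), and genes higher numbered 5 with no secondary gene. Thinning to 5000 UMIs gave 19 higher and 53 lower, a minimum of 20 CPM 20 and 32, and none 356 and 303. Scaling shifted these ratios by 0.203 (TMM) and 0.201 (DESeq2) on the log2 scale, and the ratios to other cells of experiment 2 by 0.108 with DESeq2.

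These ratios changed direction. At 10 UMIs in experiment 2 they were 0.5225 for Fcer1a, 0.01476 for Prg2, 0.8764 for Prg3, 1.147 for S100a8 and 1.211 for Chil3. With all 4 genes Fcer1a was 0.7729 in experiment 2. With no secondary gene S100a8 was 0.02515 and Chil3 0.04578 in experiment 1. In cells with 1 hashtag Prg2 was 0.02792 in experiment 2. Without members with 5 Mcpt8 UMIs, an alternative chosen after seeing the data, Prg2 was 0.04147, Prg3 0.256, Gata1 0.5869 and Mcpt8 0.3406 in experiment 1. In experiment 2 Prg2 was 0.0271, Prg3 0.4652, Mcpt8 0.1371, Prss34 0.3876 and Ms4a2 0.1722. The cut at 5 Mcpt8 UMIs reads Mcpt8 in members alone, so it lowers the Mcpt8 ratio by design. Against other cells without those with 3 or more secondary genes, also chosen after seeing the data, Ngp was 10.78 in experiment 1. In experiment 2 Fcnb was 21.33, Lcn2 17.01, S100a8 24.86, S100a9 12.47, Chil3 11.62, Cd177 1.295, Camp 1.048 and Ngp 1.704. This cut reads Lcn2, S100a8, S100a9, Camp and Ngp themselves, so it raises their ratios by design. Thinned to 5000 UMIs, Lum was 1.736, and by a mean over cells Mmp8 was 0.4735, both in experiment 2. No paired analysis was possible because each experiment had 1 mRNA library and its hashtags are tied to no condition. Depth limits the rule itself, and genes of few UMIs in a hashtag with few members.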
